A study of Mus musculus with 18 samples.

Results

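Small extracellular vesicles (sEVs) released by cultured mouse neurons were compared with those released by cultured mouse astrocytes, by counting long reads of full-length cDNA. The comparison takes the 3 neuron sEV libraries and the 3 astrocyte sEV libraries, 6 of the 18 libraries of the series, chosen by their sample labels and not by any measured value. The other 12 libraries came from microglia sEVs and from the neuron, astrocyte and microglia cells that released the vesicles, with 3 libraries in each of the 6 groups. The neuron and astrocyte cells serve here to set the sEV difference beside that of the cells the vesicles came from. All groups were primary cultures of brain tissue, and poly(A) RNA was amplified and read on a PacBio Sequel II. The labels give no strain, genotype, age, sex, culture time or treatment, do not say how the vesicles were isolated, and do not say whether replicates came from separate cultures. The p-values therefore cover the spread of these libraries alone, which may be technical. All 9 sEV libraries were run in the same sequencing pool and all 9 cell libraries in another, so neuron sEVs were compared with astrocyte sEVs within 1 pool. A level in sEVs set beside one in cells crosses pools, and there fraction and pool cannot be told apart. The study set out to ask whether mRNA is packaged into sEVs in a cell type-specific way.

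As background, sEVs are membrane-bound particles that cells shed from endosomes or the plasma membrane, and they carry proteins and RNA of the cell that made them. Neurons are recognised by transcripts for axonal microtubules, synaptic vesicles and neuropeptides. Astrocytes are recognised by the intermediate filament GFAP, by glutamate uptake and glutamine synthesis, and by gap junctions and water channels. Transcripts for ribosomal proteins and respiratory chain subunits are short, abundant and used by every cell type.

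Library totals ran from 523730 to 667845 reads in neuron sEVs and from 487966 to 615216 in astrocyte sEVs, and reads were found for 8050 to 8975 and 7215 to 9013 gene labels. Ftl1, the ferritin light chain, took 14.9 to 23.2% of the reads in neuron sEVs and 18.5 to 31.5% in astrocyte sEVs, and 0.441 to 0.692% in the neuron and astrocyte cells. The predicted gene Gm42047 took 0.588 to 8.94% in neuron sEVs and 0.868 to 6.76% in astrocyte sEVs. Replicate 1 was the library richest in Gm42047 in both groups, and the main counts are therefore also given without these 2 libraries. Levels are CPM, reads scaled to a common total, with library sizes adjusted by TMM, the trimmed mean of M-values. Differences are log2 of neuron sEVs over astrocyte sEVs ± standard error, with adjusted p from edgeR's quasi-likelihood test and Benjamini-Hochberg adjustment over all genes tested. Where all 3 libraries of a group had 0 reads, the fold is a lower bound against a floor of 3 reads per library. No isoform was listed with 1 read in a library, since values above 0 began at 2, and a 0 can hide single reads. Floors cover counting error only.

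Neuron sEVs and astrocyte sEVs differed in 1173 of 8184 genes tested (14.3%), of which 741 were higher in neuron sEVs (9.05%) and 432 were lower (5.28%). In 1099 of these the 3 libraries of one group did not overlap those of the other, against 2541 of all genes (31.0%). Of the genes that were higher, 163 had 0 reads in astrocyte sEVs, and of those that were lower, 77 had 0 reads in neuron sEVs. In bulk samples, fewer vesicles that carry a transcript and less of it per vesicle cannot be told apart. The balance of directions depended on the scaling: with unscaled library sizes 557 genes were higher (6.81%) and 801 lower (9.79%), and over all genes with reads the median log2 value was -0.37, against -0.02 with TMM. Without both libraries rich in Gm42047, 409 genes were higher and 298 lower, and from full-splice matches alone, reads whose junctions all equal those of an annotated transcript, 475 of 6535 were higher and 435 lower.

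**Figure D1:**
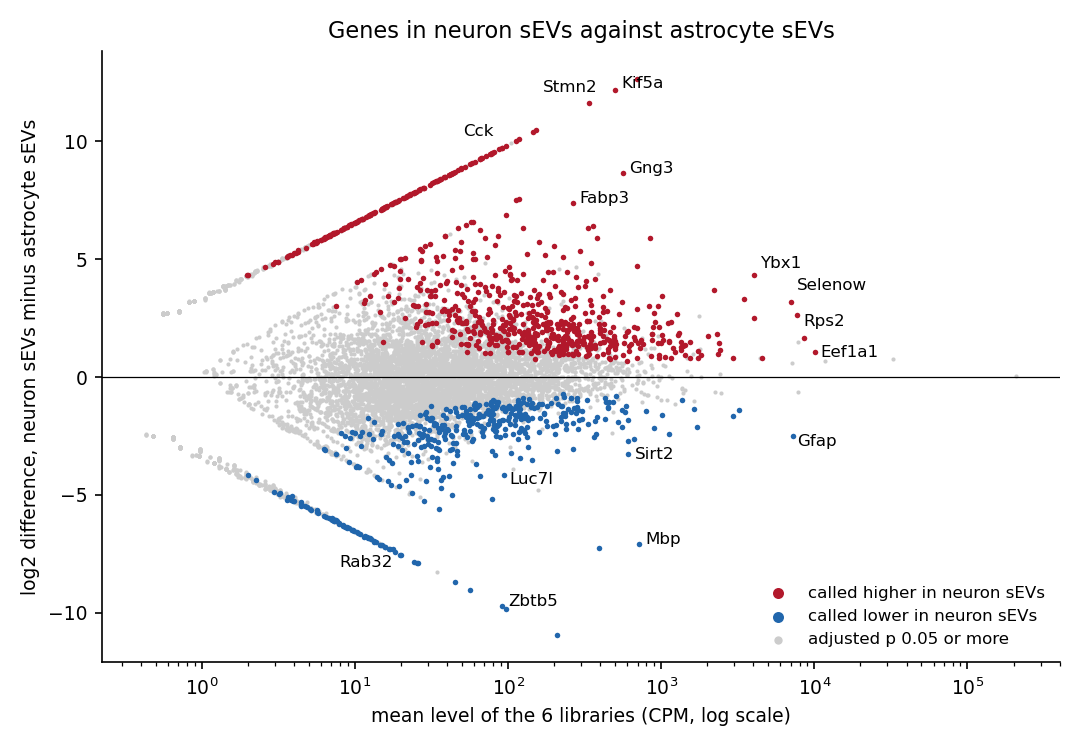
Each point is 1 of the 7703 tested genes with reads in either group, at its mean CPM over the 6 libraries (x, log scale) and its log2 difference of neuron sEVs minus astrocyte sEVs (y). Red points are the 741 genes called higher in neuron sEVs and blue points the 432 called lower, and the named neuronal genes Kif5a, Stmn2 and Cck lie at the top while Zbtb5 and Mbp lie at the bottom.

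Transcripts of the axonal and microtubule cytoskeleton were higher in neuron sEVs in 15 of 24 tested genes (62.5%, beside 9.05% of all genes). Kif5a, the motor chain of an axonal kinesin, had 1339.98, 859 and 786 CPM in neuron sEVs, against 0 reads in the 3 astrocyte sEV libraries. That made it at least 213-fold higher in neuron sEVs (adjusted p = 8.22e-06). Stmn2, a microtubule regulator of growing axons, had 808, 557 and 651 CPM in neuron sEVs, against 0 reads in the 3 astrocyte sEV libraries. The gene was at least 144-fold higher (adjusted p = 1.78e-05). Every neuron sEV library held both transcripts. The related stathmin genes were found on both sides: Stmn1 had 2489, 1833 and 2247 CPM in neuron sEVs, against 345, 318 and 378 CPM in astrocyte sEVs (log2 difference 2.66 ± 0.23, adjusted p = 2.3e-06). Stmn3 had 552, 384 and 558 CPM in neuron sEVs, against 45.2, 40.7 and 58.8 CPM in astrocyte sEVs (log2 difference 3.36 ± 0.41, adjusted p = 8.48e-05). Tubb3, the neuronal beta-tubulin, had 413, 247 and 226 CPM in neuron sEVs, against 47.8, 21.3 and 5.73 CPM in astrocyte sEVs (log2 difference 3.53 ± 0.52, adjusted p = 0.000568). In these 3 genes the lowest neuron sEV library lay above the highest astrocyte sEV library. Gap43, a growth cone protein, had 1905, 2042 and 1598 CPM in neuron sEVs, against 171, 221 and 120.4 CPM in astrocyte sEVs (log2 difference 3.44 ± 0.55, adjusted p = 0.00068). Mapt, which encodes tau, had 501, 502 and 277 CPM in neuron sEVs, against 36.2, 87.3 and 44.4 CPM in astrocyte sEVs (log2 difference 2.94 ± 0.40, adjusted p = 0.000315). Of these 24 genes of the neuronal cytoskeleton and growth cone 0 were lower, and the median log2 difference was 2.66 (-0.02 over all genes), or 2.66 from the group means with levels under the floor set to it. The count was 15 without TMM, 13 without both libraries rich in Gm42047 and 10 from full-splice matches, where Mapt lost its call.

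Transcripts of synaptic vesicles and transmitter release were higher in neuron sEVs in 9 of 22 tested genes (40.9%, beside 9.05% of all genes). Of the list 0 were lower, and the median was 3.49 (2.99 with the floor). Sncb, a presynaptic protein, had 111, 40.1 and 78.2 CPM in neuron sEVs, against 0, 0 and 2.87 CPM in astrocyte sEVs (adjusted p = 0.00117). It had 2 reads in all in astrocyte sEVs. Rab3a, a GTPase of synaptic vesicles, had 302, 167 and 203 CPM in neuron sEVs, against 28.4, 32.98 and 20.1 CPM in astrocyte sEVs (log2 difference 3.04 ± 0.53, adjusted p = 0.00127). Vamp2, a vesicle fusion protein, had 96.2, 278 and 229 CPM in neuron sEVs, against 27.1, 0 and 24.4 CPM in astrocyte sEVs (log2 difference 3.47 ± 0.74, adjusted p = 0.00423). The groups did not overlap in any of these 3 genes. The liprin-alpha genes Ppfia3 and Ppfia2, scaffolds of the presynaptic active zone, had 0 reads in astrocyte sEVs and were at least 41.5-fold higher (adjusted p = 0.000243) and at least 28.6-fold higher (adjusted p = 0.000476). Gng3, a neuronal G protein gamma subunit, had 1059.7, 1162 and 1132 CPM in neuron sEVs, against 0, 3.88 and 4.30 CPM in astrocyte sEVs (log2 difference 8.66 ± 0.59, adjusted p = 1.02e-06). Not every presynaptic gene of neurons was found in the vesicles. Syt1, the calcium sensor of transmitter release, averaged 603 ± 59.96 CPM in neuron cells (SD, n = 3). In the vesicles it had 4.98, 4.22 and 0 CPM in neuron sEVs, against 0 reads in the 3 astrocyte sEV libraries, which did not pass the test (adjusted p = 0.0822). Syt4, a relative of Syt1, averaged 1130.3 ± 908 CPM in neuron cells and had 0 reads in all 6 sEV libraries.

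Postsynaptic genes were higher in neuron sEVs in 3 of 14 tested (21.4%, beside 9.05% of all genes) and lower in 0, while 10 were higher in neuron cells than in astrocyte cells. The 3 were Cacng3, an auxiliary subunit of AMPA receptors, Camk2b, a calcium-dependent kinase subunit, and Nrgn, a calmodulin-binding protein. Cacng3 had 92.9, 165 and 32 CPM in neuron sEVs, against 0, 5.82 and 0 CPM in astrocyte sEVs (adjusted p = 0.00296), with 3 reads in all in astrocyte sEVs. Camk2b had 244, 31.6 and 21.3 CPM in neuron sEVs, against 0 reads in the 3 astrocyte sEV libraries. Its level was at least 21.2-fold higher (adjusted p = 0.00579), and 1 neuron sEV library held most of it. Nrgn was at least 5.66-fold higher (adjusted p = 0.0130). From full-splice matches 1 of the list was higher, and the Camk2b call was lost. Camk2a, the other main subunit of that kinase, had 3.32, 0 and 0 CPM in neuron sEVs, against 0 reads in the 3 astrocyte sEV libraries (adjusted p = 0.316). Of 11 tested genes whose mRNA is known from dendrites, 8 were higher (72.7%, beside 9.05% of all genes) and 0 lower. The median was 2.53 (1.94 with the floor), with 6 higher without TMM and 4 from full-splice matches. Among them Psd, an ARF exchange factor of the postsynaptic density, was at least 15.3-fold higher (adjusted p = 0.00287). Calm3, a calmodulin gene, was high in both groups, with 1184, 1002 and 1123 CPM in neuron sEVs, against 404, 310.4 and 549 CPM in astrocyte sEVs (log2 difference 1.39 ± 0.25, adjusted p = 0.00127).

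Several secretory and regulatory genes of neurons were higher in neuron sEVs. Of 14 tested genes of neuropeptides, granins and their processing, 5 were higher in neuron sEVs (35.7%, beside 9.05% of all genes) and 0 lower. Without TMM 1, the processing enzyme gene Cpe, was lower. Cck, the cholecystokinin precursor, had 274, 253 and 148 CPM in neuron sEVs, against 0 reads in the 3 astrocyte sEV libraries. It was at least 48.2-fold higher (adjusted p = 8.5e-05). Pcsk1n, an inhibitor of a prohormone convertase, had 575, 857 and 529.7 CPM in neuron sEVs, against 0, 13.6 and 11.5 CPM in astrocyte sEVs (log2 difference 6.34 ± 0.64, adjusted p = 4.46e-05). The granin genes Chga and Chgb were at least 9.84-fold higher (adjusted p = 0.0103) and at least 5.34-fold higher (adjusted p = 0.00335), although Chga had 0 reads in 1 neuron sEV library. Npy, the neuropeptide Y precursor, had 28.2, 4.22 and 16 CPM in neuron sEVs, against 0 reads in the 3 astrocyte sEV libraries. That made it at least 3.46-fold higher (adjusted p = 0.0229). Of 8 tested genes of neuronal fate, most of them transcription factors, 3 were higher (37.5%, beside 9.05% of all genes) and 0 lower. Without TMM 3 were higher and 1 lower. Mef2c had 317, 207 and 60.4 CPM in neuron sEVs, against 0, 19.4 and 5.73 CPM in astrocyte sEVs (log2 difference 4.65 ± 0.77, adjusted p = 0.000607). Sox11 had 439, 314 and 277 CPM in neuron sEVs, against 46.5, 19.4 and 31.5 CPM in astrocyte sEVs (log2 difference 3.38 ± 0.63, adjusted p = 0.00430), and Neurod6 was at least 6.77-fold higher (adjusted p = 0.00529). In the source cells Sox11 averaged 3.79 ± 4.14 CPM in neuron cells and had 0 reads in astrocyte cells. Of 9 tested neuronal RNA-binding protein genes 2 were higher (22.2%, beside 9.05% of all genes) and 1 lower (11.1%, beside 5.28%). Rbfox1, a splicing factor, was at least 10.5-fold higher (adjusted p = 0.00256). Celf4 had 163, 149.8 and 42.7 CPM in neuron sEVs, against 0, 0 and 10.03 CPM in astrocyte sEVs (log2 difference 5.003 ± 0.98, adjusted p = 0.00418). The splicing factor gene Nova1, by contrast, had 0 reads in the 3 neuron sEV libraries, against 10.3, 58.2 and 25.8 CPM in astrocyte sEVs, and was at least 5.67-fold lower (adjusted p = 0.0205). The call was lost for Npy without neuron sEV replicate 1 or astrocyte sEV replicate 1 or 3 (adjusted p up to 0.0664), and for Nova1 without neuron sEV replicate 1, 2 or 3 (adjusted p up to 0.0627).

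Across 23 tested neuron markers, 14 were higher in neuron sEVs (60.9%, beside 9.05% of all genes) and 0 lower. Without both libraries rich in Gm42047 10 were higher, and from full-splice matches 8. Among the other markers of the list, Uchl1, a ubiquitin hydrolase, had 365, 276 and 302 CPM in neuron sEVs, against 47.8, 44.6 and 47.3 CPM in astrocyte sEVs (log2 difference 2.75 ± 0.41, adjusted p = 0.000277). Eno2, neuron-specific enolase, was at least 5.46-fold higher (adjusted p = 0.00839). Summed over the 31 listed markers, in RPM, the same scale with unadjusted library totals, the level was 3776 to 5099.99 RPM in neuron sEVs and 440.5 to 513 in astrocyte sEVs, beside 9611 to 10737 in neuron cells and 541 to 743 in astrocyte cells. Reads were found for 24 of the 31 in neuron sEVs and for 15 in astrocyte sEVs. The neuron sEV libraries thus held more neuron marker RNA than the astrocyte sEV libraries. They held reads of astrocyte markers too. These summed to 5076 to 7401 RPM in neuron sEVs, with reads for 26 of 30, and to 18318 to 20880.5 in neuron cells. The same list summed to 4095 to 10223 RPM in microglia sEVs, with reads for 13 of 30, and to 21130 to 23323 in microglia cells, with reads for 16. Lipid carriers and cholesterol synthesis genes summed to 3973 to 6640 RPM in neuron sEVs and 4424 to 9935 in microglia sEVs. Gap junction, ion and water channels of glia summed to 334 to 496 RPM in neuron sEVs and 0 to 16.7 in microglia sEVs. The part of astrocytes in the neuron cultures in these values was not tested.

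Other genes that were higher in neuron sEVs were of mixed function. Palm, a lipid-anchored protein of neuronal membranes, had 373, 323 and 220.4 CPM in neuron sEVs, against 0 reads in the 3 astrocyte sEV libraries. The gene was at least 65.5-fold higher (adjusted p = 1.78e-05). Rian, an imprinted long non-coding RNA, was at least 39.3-fold higher (adjusted p = 0.000284), and Caln1, a calcium-binding protein of the brain, was at least 34.6-fold higher (adjusted p = 0.000268). Rell2, Ube2ql1 of the ubiquitin-conjugating enzymes, and Nnmt, nicotinamide N-methyltransferase, also had 0 reads in astrocyte sEVs and were at least 32.4-fold higher (adjusted p = 0.000303), at least 30.8-fold higher (adjusted p = 0.00490) and at least 28.1-fold higher (adjusted p = 0.000439). Rps23-ps1, a ribosomal protein pseudogene, had 4.98, 186 and 281 CPM in neuron sEVs, against 0 reads in the 3 astrocyte sEV libraries (adjusted p = 0.0446). Its call was lost without neuron sEV replicate 2 or 3 or astrocyte sEV replicate 1, 2 or 3 (adjusted p up to 0.0975). The smallest adjusted p belonged to Fabp3, a fatty acid-binding protein, with 557, 504 and 528 CPM in neuron sEVs, against 3.88, 0 and 4.30 CPM in astrocyte sEVs (log2 difference 7.38 ± 0.47, adjusted p = 7.79e-07). Map1lc3a, a protein of autophagosome membranes, had 1784, 1527 and 1792 CPM in neuron sEVs, against 167, 248 and 214 CPM in astrocyte sEVs (log2 difference 3.02 ± 0.24, adjusted p = 1.41e-06). Mgst3, a microsomal glutathione transferase, had 395, 240.5 and 416 CPM in neuron sEVs, against 10.3, 21.3 and 17.2 CPM in astrocyte sEVs (log2 difference 4.44 ± 0.40, adjusted p = 3.26e-06). Selenow, selenoprotein W, was among the most abundant mRNAs of neuron sEVs, with 12310.2, 11349.9 and 14363 CPM in neuron sEVs, against 1505, 931 and 1729.6 CPM in astrocyte sEVs (log2 difference 3.19 ± 0.28, adjusted p = 2.3e-06). These groups of 3 libraries did not overlap, which the rule for naming these genes required.

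**Figure D2:**
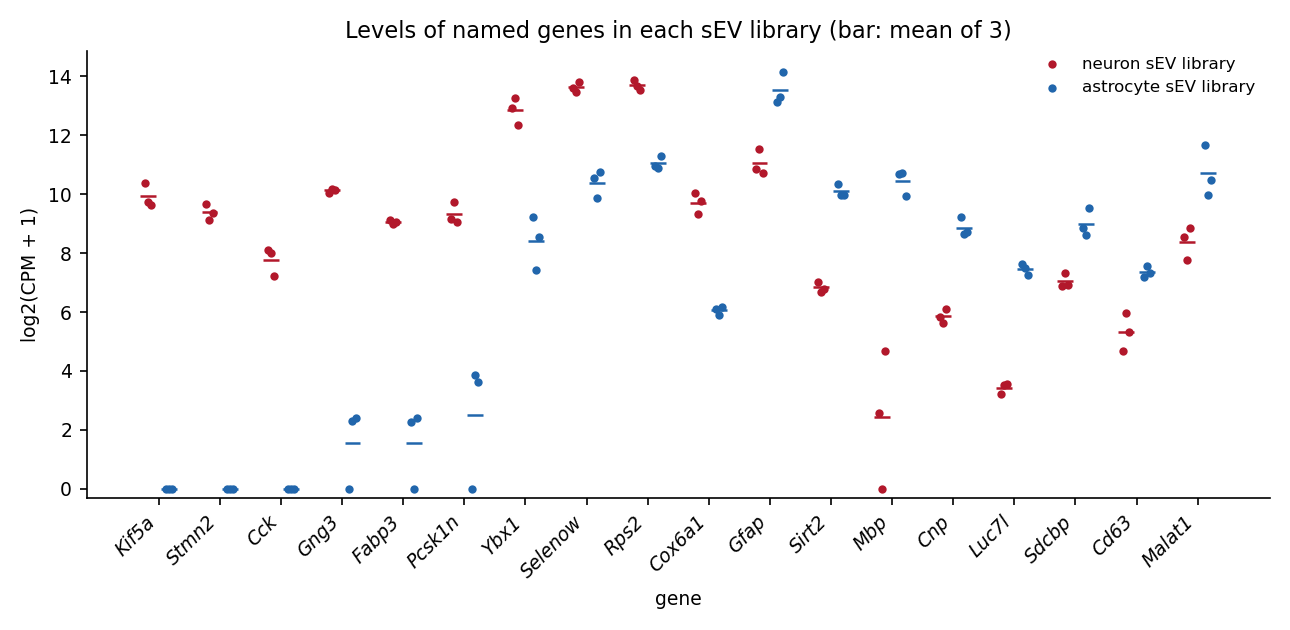
Levels of 18 named genes as log2(CPM + 1), with a point for each library and a bar at the mean of 3. Red points on the left of each gene are neuron sEVs and blue points on the right astrocyte sEVs, and a point at 0 is a library with 0 reads. Kif5a to Cox6a1 are higher in neuron sEVs, and Gfap to Malat1 are lower. The groups do not overlap in any of the 18, but all were picked from called genes, and for some the naming rule required it. Of all genes tested 31.0% did not overlap.

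Most ribosomal protein transcripts were higher in neuron sEVs. Of 76 tested cytosolic ribosomal protein genes, 60 were higher (78.9%, beside 9.05% of all genes) and 0 lower. The median log2 difference was 1.71 (1.69 with the floor). Both ribosomal subunits were represented, with 36 of 45 genes of the large subunit and 24 of 31 of the small one. Summed over the list they took 78682 to 91866 RPM in neuron sEVs and 28508 to 39113 in astrocyte sEVs, so that the lowest neuron sEV library held more than the highest astrocyte sEV library. In the source cells the sums were 12547 to 13279.9 RPM in neuron cells and 8555 to 13095 in astrocyte cells, and 5 genes of the list were higher in neuron cells. The count in sEVs was 47 higher and 1 lower without TMM (median 1.35, beside -0.37 for all genes) and 45 higher without both libraries rich in Gm42047.

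Rpsa, the laminin receptor-related protein of the small subunit, had 5856, 6363 and 6737 CPM in neuron sEVs, against 603, 776 and 523 CPM in astrocyte sEVs (log2 difference 3.32 ± 0.36, adjusted p = 1.88e-05). Rps2, also of the small subunit, had 14959, 13042 and 11969 CPM in neuron sEVs, against 1984, 1888 and 2499 CPM in astrocyte sEVs (log2 difference 2.65 ± 0.29, adjusted p = 1.88e-05). Rps7 had 2116, 1897 and 2149 CPM in neuron sEVs, against 597, 503 and 596 CPM in astrocyte sEVs (log2 difference 1.86 ± 0.21, adjusted p = 3.49e-05). In each the neuron sEV libraries lay close together and well apart from the astrocyte sEV libraries. Of the large subunit, Rpl29 had 701, 572 and 894 CPM in neuron sEVs, against 123, 105 and 90.3 CPM in astrocyte sEVs (log2 difference 2.77 ± 0.27, adjusted p = 7.19e-06). Rplp0, a protein of the ribosomal stalk, had 13118, 13122 and 12553 CPM in neuron sEVs, against 3947, 4133 and 4349 CPM in astrocyte sEVs (log2 difference 1.64 ± 0.22, adjusted p = 0.000108). Rpl4, abundant in both, had the smallest difference of those named that passed, with 5415, 6202 and 5825 CPM in neuron sEVs, against 3499.9, 3029 and 3383 CPM in astrocyte sEVs (log2 difference 0.82 ± 0.23, adjusted p = 0.0224). Its call was lost without neuron sEV replicate 2 or 3 or astrocyte sEV replicate 2 (adjusted p up to 0.0696). An exception in direction, picked after its values were seen, was Rpl15, with 158, 131 and 176 CPM in neuron sEVs, against 725, 683 and 1000.2 CPM in astrocyte sEVs (log2 difference -2.37 ± 0.80, adjusted p = 0.0566), the 1 gene called lower without TMM. Ribosomal protein genes have many near-identical pseudogenes, and reads of a gene and its copies may have been split in counting, so single values are uncertain.

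The promoters of ribosomal protein and respiratory chain genes are known for sites of ETS-family factors, with the core letters GGAAG. RefSeq promoters of assembly GRCm38.p6, 250 bases before to 50 after the gene start, were searched on both strands for CCGGAAG. On the opposite strand this reads CTTCCGG. The motif occurred in 23 of 56 matched ribosomal protein promoters (41.07%) and in 16 of 66 of respiratory chain genes (24.24%), against 8.858% of all 32851 promoters, 2 of 15 of the neuronal cytoskeleton genes and 1 of 21 of the astrocyte markers. The overlapping letters CGGAAGT occurred in 37.5, 16.67 and 6.42% of ribosomal protein, respiratory chain and all promoters, and in 0% of the cytoskeleton and of the astrocyte marker promoters. In the same order of 5, the core GGAAG, which lies within both, occurred in 91.07, 74.24, 71.41, 60 and 85.71%, GGGCGG in 66.07, 42.42, 35.66, 80 and 42.86%, and TATAAA in 8.929, 9.091, 13.62, 20 and 19.05%. For these 3 a comparison list lay above the ribosomal protein or the respiratory chain promoters. The motifs were chosen with the expression results known, and a match is a description of the letters, not a bound site. Windows of 40 bases around the match are shown for 3 ribosomal protein genes with values above and for Cox6a1, the respiratory chain gene with the smallest p, 5′ to 3′ on the gene's strand, with the match in capitals.
Rpsa, chr9:120127562-120127601, plus strand: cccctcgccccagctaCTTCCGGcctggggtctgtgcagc
Rps2, chr17:24719920-24719959, plus strand: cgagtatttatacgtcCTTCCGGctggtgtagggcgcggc
Rps7, chr12:28635944-28635983, minus strand: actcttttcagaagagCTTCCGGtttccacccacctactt
Cox6a1, chr5:115348951-115348990, minus strand: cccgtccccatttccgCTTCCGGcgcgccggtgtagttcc

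Nuclear-encoded subunits of the respiratory chain and ATP synthase were also higher in neuron sEVs, in 46 of 80 tested genes (57.5%, beside 9.05% of all genes). The median was 1.39, and 1 gene was lower. Cox6a1, a subunit of cytochrome c oxidase, had 1046, 643 and 876 CPM in neuron sEVs, against 68.5, 58.2 and 70.2 CPM in astrocyte sEVs (log2 difference 3.70 ± 0.31, adjusted p = 2.3e-06). Ndufb9, of complex I, had 849, 549 and 878 CPM in neuron sEVs, against 73.6, 44.6 and 93.1 CPM in astrocyte sEVs (log2 difference 3.42 ± 0.36, adjusted p = 1.62e-05). Uqcrq, of complex III, had 796, 498 and 1020.3 CPM in neuron sEVs, against 109.8, 79.6 and 145 CPM in astrocyte sEVs (log2 difference 2.79 ± 0.31, adjusted p = 2.59e-05). Atp5g1, which encodes the membrane ring subunit of ATP synthase, had 1269, 928 and 1483 CPM in neuron sEVs, against 189.9, 146 and 159 CPM in astrocyte sEVs (log2 difference 2.89 ± 0.26, adjusted p = 2.93e-06). In all 4 the astrocyte sEV libraries lay below every neuron sEV library. By complex, 23 of 37 genes of complex I were higher, 4 of 9 of complex III, 11 of 13 of complex IV and 8 of 16 of ATP synthase. Of the 4 genes of complex II 0 were higher. Sdha, its flavoprotein, named after its values were seen, was lower, with 179, 222 and 196 CPM in neuron sEVs, against 339.8, 357 and 394 CPM in astrocyte sEVs (log2 difference -0.87 ± 0.24, adjusted p = 0.0230). This call was lost without neuron sEV replicate 1 or 3 or astrocyte sEV replicate 3 (adjusted p up to 0.1005). The whole list summed to 25177 to 34318 RPM in neuron sEVs and 12907 to 20193 in astrocyte sEVs. Without TMM 35 were higher and 7 lower, and without both libraries rich in Gm42047 29 were higher.

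Transcripts encoded by the mitochondrial genome gave no call. Of 11 tested 0 passed in either direction by edgeR's test, and DESeq2 called 2 higher and 0 lower. The smallest p belonged to the ribosomal RNA mt-Rnr1, with 221, 25.3 and 306 CPM in neuron sEVs, against 0, 9.70 and 42.99 CPM in astrocyte sEVs (log2 difference 3.37 ± 1.15, adjusted p = 0.0588). Next was mt-Rnr2, with 1444, 382 and 1545 CPM in neuron sEVs, against 419, 565 and 103 CPM in astrocyte sEVs (log2 difference 1.64 ± 0.62, adjusted p = 0.0895). The libraries of both groups overlapped widely: the sums over the list were 991 to 4880.4 RPM in neuron sEVs and 1028 to 6414 in astrocyte sEVs, beside 47635 to 75432 in neuron cells and 48697 to 76724 in astrocyte cells.

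**Figure D3:**
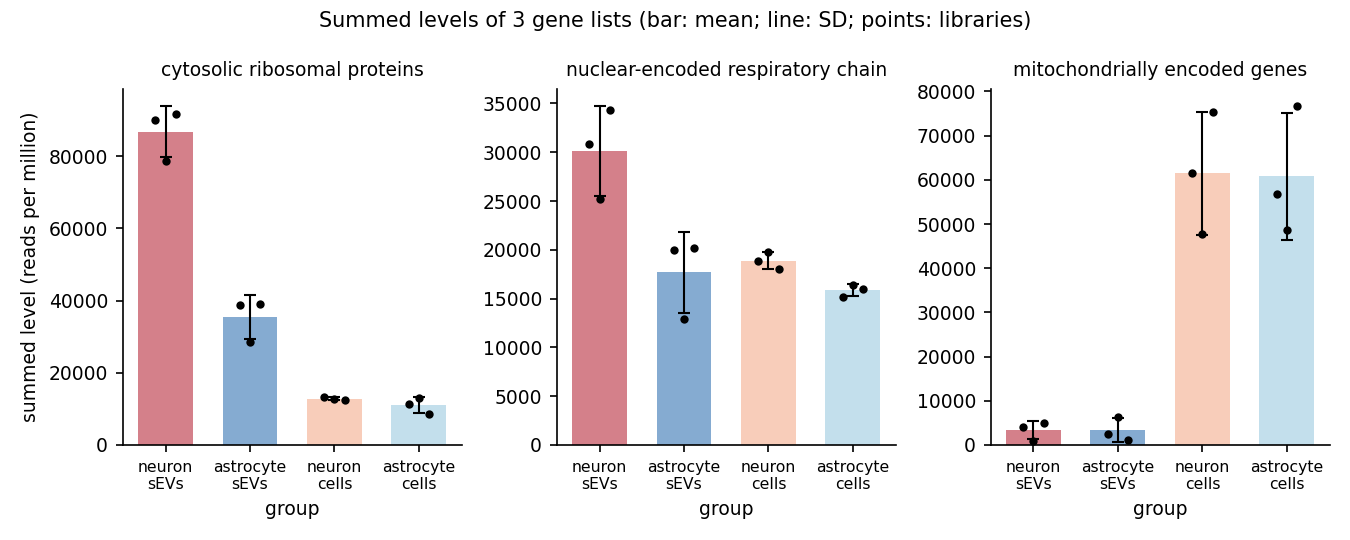
Summed levels of cytosolic ribosomal protein genes, nuclear-encoded respiratory chain genes and mitochondrially encoded genes, in RPM of unscaled totals, for neuron sEVs, astrocyte sEVs, neuron cells and astrocyte cells. Bars are means of 3 libraries, lines the SD and points the libraries. Neuron sEVs lie above astrocyte sEVs in the first 2 panels, and the groups overlap in the panel of mitochondrially encoded genes.

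Translation factors moved in both directions. Of 49 tested, 9 were higher in neuron sEVs (18.4%, beside 9.05% of all genes) and 4 lower (8.16%, beside 5.28%). Without TMM 3 were higher and 6 lower. Eef1a1, the elongation factor that brings aminoacyl-tRNA to the ribosome, had 14290.3, 11611 and 14777 CPM in neuron sEVs, against 5521, 6205 and 7741 CPM in astrocyte sEVs (log2 difference 1.06 ± 0.25, adjusted p = 0.00903). Other elongation factor genes were higher as well: Eef1b2 had 496, 392 and 421 CPM in neuron sEVs, against 98.2, 83.4 and 125 CPM in astrocyte sEVs (log2 difference 2.09 ± 0.34, adjusted p = 0.000503). Eef1g had 3069.7, 3304 and 2993 CPM in neuron sEVs, against 1453, 1542 and 1813 CPM in astrocyte sEVs (log2 difference 0.96 ± 0.21, adjusted p = 0.00484). Of the eIF3 complex, Eif3k had 660.04, 544 and 635 CPM in neuron sEVs, against 252, 186 and 218 CPM in astrocyte sEVs (log2 difference 1.48 ± 0.23, adjusted p = 0.00033). Eif3f had 709.8, 605 and 620.4 CPM in neuron sEVs, against 256, 97.01 and 216 CPM in astrocyte sEVs (log2 difference 1.76 ± 0.37, adjusted p = 0.00423). Eif4a1, the helicase of the cap-binding complex, was lower, with 285, 169 and 313 CPM in neuron sEVs, against 565, 695 and 669 CPM in astrocyte sEVs (log2 difference -1.33 ± 0.25, adjusted p = 0.00163). The directions of Eef1b2, Eif3f, Eif3k and Eif4a1 were called without TMM too.

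Of 26 tested astrocyte markers 4 were lower in neuron sEVs (15.4%, beside 5.28% of all genes) and 0 higher. Gfap, the astrocyte intermediate filament, had 1847, 2958 and 1698 CPM in neuron sEVs, against 9027, 10047 and 18236 CPM in astrocyte sEVs (log2 difference -2.52 ± 0.63, adjusted p = 0.0124). Fabp7, a fatty acid-binding protein of glia, had 813, 810.1 and 1132 CPM in neuron sEVs, against 2574, 1286 and 3188 CPM in astrocyte sEVs (log2 difference -1.36 ± 0.32, adjusted p = 0.00817). Glul, glutamine synthetase, had 48.1, 103 and 97.8 CPM in neuron sEVs, against 167, 169 and 257 CPM in astrocyte sEVs (log2 difference -1.25 ± 0.35, adjusted p = 0.0232). Gja1, the gap junction protein connexin 43, had 13.3, 23.2 and 10.7 CPM in neuron sEVs, against 116, 77.6 and 81.7 CPM in astrocyte sEVs (log2 difference -2.56 ± 0.64, adjusted p = 0.0124). The list had a median log2 difference of -1.08 (-0.81 with the floor), beside -0.02 over all genes. Without TMM 8 of its 26 genes were lower, when 9.79% of all genes were. Without both libraries rich in Gm42047 0 were called in either direction by edgeR's test, and DESeq2 on all libraries called 5 lower. The Gfap call was lost without neuron sEV replicate 1 or 3 (adjusted p up to 0.0572). That of Gja1 was lost without neuron sEV replicate 1 or 3 (adjusted p up to 0.0593). For Glul it was lost without neuron sEV replicate 1 or astrocyte sEV replicate 3 (adjusted p up to 0.110). In the source cells 19 of the same 26 genes were lower in neuron cells. Summed astrocyte markers took 5076 to 7401 RPM in neuron sEVs and 18821 to 32212 in astrocyte sEVs, with no overlap. Apoe, the main lipid carrier of astrocytes, had 436, 1023 and 841 CPM in neuron sEVs, against 1226, 2357 and 1469 CPM in astrocyte sEVs (log2 difference -1.14 ± 0.38, adjusted p = 0.0524). Aldoc, the brain aldolase, had 998, 1124 and 1317 CPM in neuron sEVs, against 1046, 659.7 and 1635 CPM in astrocyte sEVs (log2 difference 0.04 ± 0.33, adjusted p = 1). Aqp4, the water channel, averaged 837 ± 114 CPM in astrocyte cells, yet had 0 reads in the 3 neuron sEV libraries, against 19.4, 0 and 0 CPM in astrocyte sEVs.

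In the other glial groups 7.69 to 33.3% of the tested genes were lower, 1 to 3 genes in each, beside 5.28% of all genes. Of 13 tested genes of transmitter uptake and glutamine or GABA metabolism 1 was lower, Glul. Of 9 channels of glia 1 was lower, Gja1, while 7 were lower in neuron cells. Among intermediate filaments the neurofilament gene Nefl was higher, with 192, 122 and 107 CPM in neuron sEVs, against 0, 13.6 and 0 CPM in astrocyte sEVs (log2 difference 5.10 ± 1.000, adjusted p = 0.00585). Vim, vimentin, was lower, with 97.8, 94.9 and 95.99 CPM in neuron sEVs, against 323, 334 and 494 CPM in astrocyte sEVs (log2 difference -1.99 ± 0.33, adjusted p = 0.000629). Of 15 reactive astrocyte genes Gfap, Vim and the interferon-induced GTPase gene Gbp2 were lower. Gbp2 had 11.6, 0 and 0 CPM in neuron sEVs, against 36.2, 60.1 and 25.8 CPM in astrocyte sEVs (log2 difference -3.21 ± 0.79, adjusted p = 0.0113). H2-D1, of antigen presentation, was higher, with 23.2, 25.3 and 19.6 CPM in neuron sEVs, against 6.46, 3.88 and 12.9 CPM in astrocyte sEVs (log2 difference 1.49 ± 0.41, adjusted p = 0.0215). The H2-D1 call was lost without neuron sEV replicate 1 or 2 or astrocyte sEV replicate 1 or 2 (adjusted p up to 0.0778). Among 23 genes of lipid carriers and cholesterol synthesis Fdps, an enzyme of isoprenoid synthesis, was higher, with 493, 477 and 419.5 CPM in neuron sEVs, against 177, 206 and 183 CPM in astrocyte sEVs (log2 difference 1.29 ± 0.25, adjusted p = 0.00182). Fabp7 and the acyl-CoA-binding protein gene Dbi were lower. Dbi had 375, 285 and 627 CPM in neuron sEVs, against 1219.6, 636 and 1629 CPM in astrocyte sEVs (log2 difference -1.44 ± 0.34, adjusted p = 0.00893), and its call was lost without neuron sEV replicate 2 or astrocyte sEV replicate 3 (adjusted p up to 0.0541).

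Transcripts of 5 of 13 tested oligodendrocyte lineage markers were lower in neuron sEVs (38.5%, beside 5.28% of all genes) and 0 were higher. Mbp, myelin basic protein, had 4.98, 0 and 24.9 CPM in neuron sEVs, against 1647, 1676 and 967 CPM in astrocyte sEVs (log2 difference -7.10 ± 0.87, adjusted p = 0.000155). Cnp, an enzyme of myelin-forming cells, had 56.4, 48.5 and 67.5 CPM in neuron sEVs, against 601, 399.7 and 418 CPM in astrocyte sEVs (log2 difference -3.03 ± 0.44, adjusted p = 0.000221). Bcas1 had 126, 67.5 and 128 CPM in neuron sEVs, against 809, 510.3 and 547 CPM in astrocyte sEVs (log2 difference -2.53 ± 0.51, adjusted p = 0.00497), but its call was lost from full-splice matches, with a log2 difference of -0.52 (adjusted p = 0.952). Mobp had 6.63, 0 and 0 CPM in neuron sEVs, against 147, 50.4 and 51.6 CPM in astrocyte sEVs (log2 difference -5.02 ± 1.20, adjusted p = 0.0133). The count was also 5 without both libraries rich in Gm42047. The list summed to 418 to 565 RPM in neuron sEVs, with reads for 10 of 18 markers, and to 2687 to 4394 in astrocyte sEVs, with reads for 13. In cells it summed to 705 to 2049 RPM in neuron cells and 4957 to 10799.8 in astrocyte cells, so the astrocyte cultures held oligodendrocyte lineage transcripts, whose part in the sEV difference was not tested. Sirt2, a deacetylase that is also abundant in myelin-forming cells, had 129, 101 and 110.2 CPM in neuron sEVs, against 1297, 1011 and 992 CPM in astrocyte sEVs (log2 difference -3.27 ± 0.33, adjusted p = 9.55e-06), the smallest adjusted p among genes that were lower.

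Microglia markers had few reads in both groups, and chemokine genes differed in both directions. Of 20 tested microglia markers, of which 10 had reads in either group, 1 was lower in neuron sEVs (5%, beside 5.28% of all genes). It was the lysozyme gene Lyz2, with 0 reads in the 3 neuron sEV libraries, against 0, 81.5 and 24.4 CPM in astrocyte sEVs (at least 6.36-fold lower, adjusted p = 0.0103). The chemokine genes Ccl5, Ccl4 and Ccl3 were lower too. Ccl5 had 0 reads in the 3 neuron sEV libraries, against 3.88, 15.5 and 7.17 CPM in astrocyte sEVs (adjusted p = 0.00607). Ccl4 had 0 reads in the 3 neuron sEV libraries, against 0, 23.3 and 21.5 CPM in astrocyte sEVs (adjusted p = 0.0266). Ccl3 had 0 reads in the 3 neuron sEV libraries, against 0, 23.3 and 20.1 CPM in astrocyte sEVs (adjusted p = 0.0269). These levels were small beside those of microglia sEVs of the same pool, 8991 ± 764 CPM for Lyz2, 7027 ± 1412 CPM for Ccl5, 11493 ± 1456 CPM for Ccl4 and 16057 ± 1149 CPM for Ccl3 (SD, n = 3). The 3 chemokine genes had 0 reads in the astrocyte and neuron cells, so they passed the filter on low counts only through the microglia libraries. Those libraries also entered the spread behind the p-values, and these calls rest in part on libraries outside the comparison. Summed microglia markers were 6.46 to 19.1 RPM in neuron sEVs with reads for 4 of 24, 13 to 205 in astrocyte sEVs with reads for 11, and 20023 to 29404 in microglia sEVs. Of the markers that microglia sEVs held, Aif1, C1qa and Tyrobp had 0 reads in both groups, while P2ry12 and C1qb had reads in astrocyte sEVs. The part of microglial RNA in these calls was not tested. Calls were lost for Ccl4 without neuron sEV replicate 1, 2 or 3 or astrocyte sEV replicate 2 or 3 (adjusted p up to 0.0733), and for Ccl3 without the same libraries (adjusted p up to 0.0741). Of 20 tested cytokine and chemokine genes, 15 had reads in either group. In neuron sEVs 2 of the 20 were higher (10%, beside 9.05% of all genes) and 4 lower (20%, beside 5.28%). With the replicate number as a block 2 were higher and 1 lower. The 2 that were higher in the main fit were Mif, macrophage migration inhibitory factor, with 689.9, 384 and 777 CPM in neuron sEVs, against 58.1, 46.6 and 88.8 CPM in astrocyte sEVs (log2 difference 3.25 ± 0.32, adjusted p = 8.34e-06), and the chemokine gene Cxcl14. Cxcl14 had 29.9, 71.7 and 55.1 CPM in neuron sEVs, against 0, 0 and 2.87 CPM in astrocyte sEVs (adjusted p = 0.000955).

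Interferon response genes were lower in neuron sEVs in 5 of 22 tested (22.7%, beside 5.28% of all genes) and higher in 1, H2-D1. From full-splice matches 3 were lower and 0 higher, and with the replicate number as a block also 3 and 0. Of the 22, 16 had reads in neuron or astrocyte sEVs, and the others passed the filter on low counts only through other libraries. Libraries outside the comparison also entered the spread behind the p-values. The list summed to 82.1 to 179 RPM in neuron sEVs and 310.5 to 475 in astrocyte sEVs, beside 38503 to 49615 in microglia sEVs. Summed microglia markers, 6.46 to 19.1 RPM in neuron sEVs and 13 to 205 in astrocyte sEVs, moved the same way in their medians but overlapped, and their part in these calls was not tested. Ifit3, an antiviral protein, had 0 reads in the 3 neuron sEV libraries, against 12.9, 42.7 and 20.1 CPM in astrocyte sEVs. It was at least 4.55-fold lower (adjusted p = 0.00245). Ifitm2, a membrane protein of the same response, had 16.6, 14.8 and 39.1 CPM in neuron sEVs, against 72.3, 81.5 and 115 CPM in astrocyte sEVs (log2 difference -1.91 ± 0.40, adjusted p = 0.00377). Gbp2 and Ifi27 were lower as well. Ifi27 had 0, 6.33 and 5.33 CPM in neuron sEVs, against 23.3, 21.3 and 17.2 CPM in astrocyte sEVs (log2 difference -2.40 ± 0.64, adjusted p = 0.0179), a call lost without neuron sEV replicate 1 (adjusted p = 0.0564). Markers of fibroblasts and vessels (2 tested) and of ependyma and choroid plexus (4 tested) gave 0 calls by edgeR's test, and reads were found for 2 of 15 and 3 of 11 in neuron sEVs, and for 4 of 15 and 6 of 11 in astrocyte sEVs. Of 11 blood cell markers, the alpha-globin gene Hba-a1 had 2 reads in neuron sEVs, and astrocyte sEVs had none.

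Several genes of vesicle formation and of the vesicle surface were lower in neuron sEVs. Sdcbp, which encodes the exosome biogenesis adaptor syntenin, had 118, 158 and 121 CPM in neuron sEVs, against 464, 386 and 737 CPM in astrocyte sEVs (log2 difference -2.0001 ± 0.31, adjusted p = 0.000317). The tetraspanin gene Cd63, whose protein marks vesicles, had 24.9, 61.2 and 39.1 CPM in neuron sEVs, against 146, 186 and 158 CPM in astrocyte sEVs (log2 difference -1.97 ± 0.35, adjusted p = 0.00109). Cd9, another tetraspanin gene, had 21.6, 21.1 and 33.8 CPM in neuron sEVs, against 83.98, 144 and 48.7 CPM in astrocyte sEVs (log2 difference -1.83 ± 0.39, adjusted p = 0.00421). Vps4b, an ATPase that ends ESCRT-driven budding, had 13.3, 0 and 19.6 CPM in neuron sEVs, against 62.01, 69.8 and 63.1 CPM in astrocyte sEVs (log2 difference -2.50 ± 0.54, adjusted p = 0.00441). Anxa5, annexin A5, had 153, 84.4 and 162 CPM in neuron sEVs, against 369.5, 225 and 345 CPM in astrocyte sEVs (log2 difference -1.23 ± 0.29, adjusted p = 0.00811). The groups did not overlap in these genes. Of 25 tested genes of the list 7 were lower (28%, beside 5.28% of all genes) and 0 higher. The median was -0.61 (-0.61 with the floor), beside -0.02 over all genes. Without TMM 10 were lower, when 9.79% of all genes were. In the source cells, 7 of the list were lower in neuron cells than in astrocyte cells. The list summed to 1623 to 1829 RPM in neuron sEVs and 3691 to 4071 in astrocyte sEVs, beside 12831 to 14057 in neuron cells and 25759.8 to 30824 in astrocyte cells. These are mRNA levels and say nothing of the vesicle proteins.

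Genes of RNA-binding proteins that have been tied to RNA sorting into vesicles split by direction. Ybx1, a cold shock domain protein, was higher, with 7834, 9907 and 5164 CPM in neuron sEVs, against 598, 173 and 369.7 CPM in astrocyte sEVs (log2 difference 4.32 ± 0.50, adjusted p = 3.7e-05). In the source cells Ybx1 averaged 181 ± 37.3 CPM in neuron cells and 33.96 ± 14.2 CPM in astrocyte cells. Hnrnpk, Hnrnpc and Hnrnpa2b1, nuclear ribonucleoproteins, and Fxr1, a relative of FMRP, were lower: Hnrnpk had 222, 156 and 244 CPM in neuron sEVs, against 916, 596 and 1166 CPM in astrocyte sEVs (log2 difference -2.10 ± 0.28, adjusted p = 0.000108). Hnrnpc had 84.6, 40.1 and 101 CPM in neuron sEVs, against 357, 132 and 457 CPM in astrocyte sEVs (log2 difference -2.06 ± 0.41, adjusted p = 0.00259). Fxr1 had 21.6, 21.1 and 23.1 CPM in neuron sEVs, against 83.98, 69.8 and 115 CPM in astrocyte sEVs (log2 difference -2.02 ± 0.40, adjusted p = 0.00261). Hnrnpa2b1 had 81.3, 29.5 and 62.2 CPM in neuron sEVs, against 143, 93.1 and 185 CPM in astrocyte sEVs (log2 difference -1.27 ± 0.33, adjusted p = 0.0158), a call lost without neuron sEV replicate 2 or astrocyte sEV replicate 3 (adjusted p up to 0.0756). Of the list, 2 of 20 tested were higher (10%, beside 9.05% of all genes) and 6 lower (30%, beside 5.28%). Of 26 spliceosome and speckle genes, Snrpd2, a core protein of spliceosomal particles, was higher, with 179, 129 and 245 CPM in neuron sEVs, against 71.1, 42.7 and 67.4 CPM in astrocyte sEVs (log2 difference 1.60 ± 0.37, adjusted p = 0.00753). Srsf5, a splicing regulator, was lower, with 36.5, 8.44 and 32 CPM in neuron sEVs, against 177, 151 and 125 CPM in astrocyte sEVs (log2 difference -2.52 ± 0.41, adjusted p = 0.000507). Of the 26 spliceosome and speckle genes 3.85% were called in each direction, below the 9.05% higher and 5.28% lower of all genes. Ybx1 was called without each of the 6 libraries in turn.

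Among genes lower in neuron sEVs outside these lists, Zbtb5, a zinc finger protein, had 0 reads in the 3 neuron sEV libraries, against 109, 264 and 173 CPM in astrocyte sEVs. That made it at least 32.8-fold lower (adjusted p = 0.00377). Luc7l, a protein tied to the U1 splicing particle, had 8.29, 10.5 and 10.7 CPM in neuron sEVs, against 196, 180.4 and 153 CPM in astrocyte sEVs (log2 difference -4.14 ± 0.43, adjusted p = 1.21e-05). Mapre2, which binds microtubule ends, had 86.2, 56.96 and 97.8 CPM in neuron sEVs, against 332, 308 and 349.7 CPM in astrocyte sEVs (log2 difference -2.03 ± 0.26, adjusted p = 7.18e-05). Snx2, of the retromer sorting complex, had 29.9, 18.99 and 24.9 CPM in neuron sEVs, against 178, 109 and 138 CPM in astrocyte sEVs (log2 difference -2.51 ± 0.34, adjusted p = 0.000101). Ewsr1, an RNA-binding protein, had 67.99, 63.3 and 72.9 CPM in neuron sEVs, against 292, 264 and 311 CPM in astrocyte sEVs (log2 difference -2.08 ± 0.27, adjusted p = 8.5e-05). Phyhipl and Dazap2 were lower as well, with log2 differences of -3.14 ± 0.39 (adjusted p = 0.000101) and -2.15 ± 0.28 (adjusted p = 8.48e-05). Genes with 0 reads in neuron sEVs were Rab32, a GTPase of lysosome-related organelles (at least 7.14-fold lower, adjusted p = 6.84e-05), and Cntf, ciliary neurotrophic factor (at least 8.77-fold lower, adjusted p = 0.00519). The others were Gnpda2, an enzyme of amino sugar metabolism (at least 7.23-fold lower, adjusted p = 0.00273), and Wdr20 (at least 9.11-fold lower, adjusted p = 0.000354). Gna13, a G protein alpha subunit, also had 0, but 1 astrocyte sEV library held most of its reads, with 0 reads in the 3 neuron sEV libraries, against 18.1, 310.4 and 10.03 CPM in astrocyte sEVs (adjusted p = 0.0177). Tmem88b, Efcab14 and Yap1, a co-activator of the Hippo pathway, were at least 6.58-fold lower (adjusted p = 0.0412), at least 6.07-fold lower (adjusted p = 0.0324) and at least 5.69-fold lower (adjusted p = 0.0285). The Gna13 call was lost without neuron sEV replicate 1 or 2 (adjusted p up to 0.0557). That of Tmem88b was lost without neuron sEV replicate 1, 2 or 3 or astrocyte sEV replicate 1 or 2 (adjusted p up to 0.116). For Efcab14 it was lost without neuron sEV replicate 1, 2 or 3 or astrocyte sEV replicate 1 or 3 (adjusted p up to 0.0920). For Yap1 it was lost without neuron sEV replicate 1, 2 or 3 or astrocyte sEV replicate 2 or 3 (adjusted p up to 0.0868). The most abundant genes that were lower included Pea15a, a death effector domain protein, with 1658, 2046 and 1605 CPM in neuron sEVs, against 3285, 5165 and 5445 CPM in astrocyte sEVs (log2 difference -1.39 ± 0.30, adjusted p = 0.00428). H3f3b, of histone H3.3, had 629, 557 and 734 CPM in neuron sEVs, against 3112, 1826 and 3342 CPM in astrocyte sEVs (log2 difference -2.11 ± 0.29, adjusted p = 0.000147).

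Antioxidant enzymes went both ways. Prdx6, a peroxiredoxin, was lower, with 1158, 1338 and 1781 CPM in neuron sEVs, against 3537, 4474 and 5379.5 CPM in astrocyte sEVs (log2 difference -1.65 ± 0.32, adjusted p = 0.00239). Prdx1, its relative, was lower with 172, 154 and 251 CPM in neuron sEVs, against 776, 431 and 777 CPM in astrocyte sEVs (log2 difference -1.78 ± 0.28, adjusted p = 0.000413). The catalase gene was lower too. Gpx4, the glutathione peroxidase of membrane lipids, was higher, with 692, 454 and 725 CPM in neuron sEVs, against 229, 98.95 and 182 CPM in astrocyte sEVs (log2 difference 1.87 ± 0.31, adjusted p = 0.000607). So was the glutathione transferase gene Gstm5, with 1108, 1384 and 1212 CPM in neuron sEVs, against 702, 685 and 745 CPM in astrocyte sEVs (log2 difference 0.80 ± 0.20, adjusted p = 0.0118). The Gstm5 call was lost without neuron sEV replicate 2 (adjusted p = 0.0602). Of 24 tested 5 were higher (20.8%, beside 9.05% of all genes) and 3 lower (12.5%, beside 5.28%), and without TMM 2 and 6. Among 22 matrix and secreted factor genes 1 was higher (4.55%, beside 9.05% of all genes) and 4 lower (18.2%, beside 5.28%). Serpine2, a protease inhibitor, was lower, with 41.5, 67.5 and 79.99 CPM in neuron sEVs, against 173, 229 and 179 CPM in astrocyte sEVs (log2 difference -1.62 ± 0.35, adjusted p = 0.00441). Lgals3, galectin 3, was at least 1.76-fold lower (adjusted p = 0.00742). Spp1, osteopontin, and Timp2, a metalloprotease inhibitor, were lower and Mdk, the growth factor midkine, higher, with adjusted p = 0.0236, 0.0379 and 0.0173. The Spp1 call was lost without neuron sEV replicate 1, 2 or 3 or astrocyte sEV replicate 3 (adjusted p up to 0.108). That of Timp2 was lost without neuron sEV replicate 1, 2 or 3 or astrocyte sEV replicate 2 or 3 (adjusted p up to 0.134). For Mdk it was lost without neuron sEV replicate 2 (adjusted p = 0.0553).

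Of 9 tested long non-coding RNAs 3 were higher in neuron sEVs (33.3%, beside 9.05% of all genes) and 1 lower (11.1%, beside 5.28%). Malat1, kept in nuclear speckles of cells, was the 1 that was lower, with 369.8, 215 and 464 CPM in neuron sEVs, against 3243, 1013 and 1414 CPM in astrocyte sEVs (log2 difference -2.43 ± 0.48, adjusted p = 0.00261). In the cells its level was 9670.1 ± 3429 CPM in neuron cells and 13321 ± 842 CPM in astrocyte cells. Norad, a cytoplasmic RNA that binds Pumilio proteins, had 902, 935 and 793 CPM in neuron sEVs, against 289, 450.1 and 309.5 CPM in astrocyte sEVs (log2 difference 1.33 ± 0.32, adjusted p = 0.0104). Pantr1 had 359.9, 432 and 532 CPM in neuron sEVs, against 77.5, 54.3 and 143 CPM in astrocyte sEVs (log2 difference 2.26 ± 0.41, adjusted p = 0.00172). Glycolytic enzymes showed no common direction: of 18 tested, Eno2 and Tpi1, triosephosphate isomerase, were higher and Ldhb, a lactate dehydrogenase, and Slc2a1, a glucose transporter, lower. That was 11.1% each way, beside 9.05% higher and 5.28% lower of all genes. With the replicate number as a block 1 was higher and 0 lower. Of 16 chaperones P4hb and Hspa5, both of the endoplasmic reticulum, were lower (12.5%, beside 5.28% of all genes) and 0 higher. With the block 1 chaperone was lower. Of 21 cell cycle genes Stmn1 and Ccnd1, cyclin D1, were higher and Pcna, the replication clamp, lower. These shares, 9.52 and 4.76%, were near the 9.05 and 5.28% of all genes. Of 13 histone genes H2bu2 was higher and H3f3b lower (7.69% each), and of 10 immediate early genes Jun was lower (10%). The Tpi1 call was lost without neuron sEV replicate 2 or 3 or astrocyte sEV replicate 1 or 2 (adjusted p up to 0.104). That of Ldhb was lost without neuron sEV replicate 1, 2 or 3 or astrocyte sEV replicate 1 or 3 (adjusted p up to 0.172). For Slc2a1 it was lost without neuron sEV replicate 1, 2 or 3 or astrocyte sEV replicate 1 or 2 (adjusted p up to 0.108). For Hspa5 it was lost without neuron sEV replicate 1, 2 or 3 or astrocyte sEV replicate 1 or 2 (adjusted p up to 0.175). For P4hb it was lost without neuron sEV replicate 1 (adjusted p = 0.0521). For Ccnd1 it was lost without neuron sEV replicate 1, 2 or 3 or astrocyte sEV replicate 1 or 3 (adjusted p up to 0.122). For Pcna it was lost without neuron sEV replicate 2 or astrocyte sEV replicate 1 (adjusted p up to 0.0721). For H2bu2 it was lost without neuron sEV replicate 1 (adjusted p = 0.0521). For Jun it was lost without neuron sEV replicate 1 or 2 or astrocyte sEV replicate 2 or 3 (adjusted p up to 0.136).

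**Figure D4:**
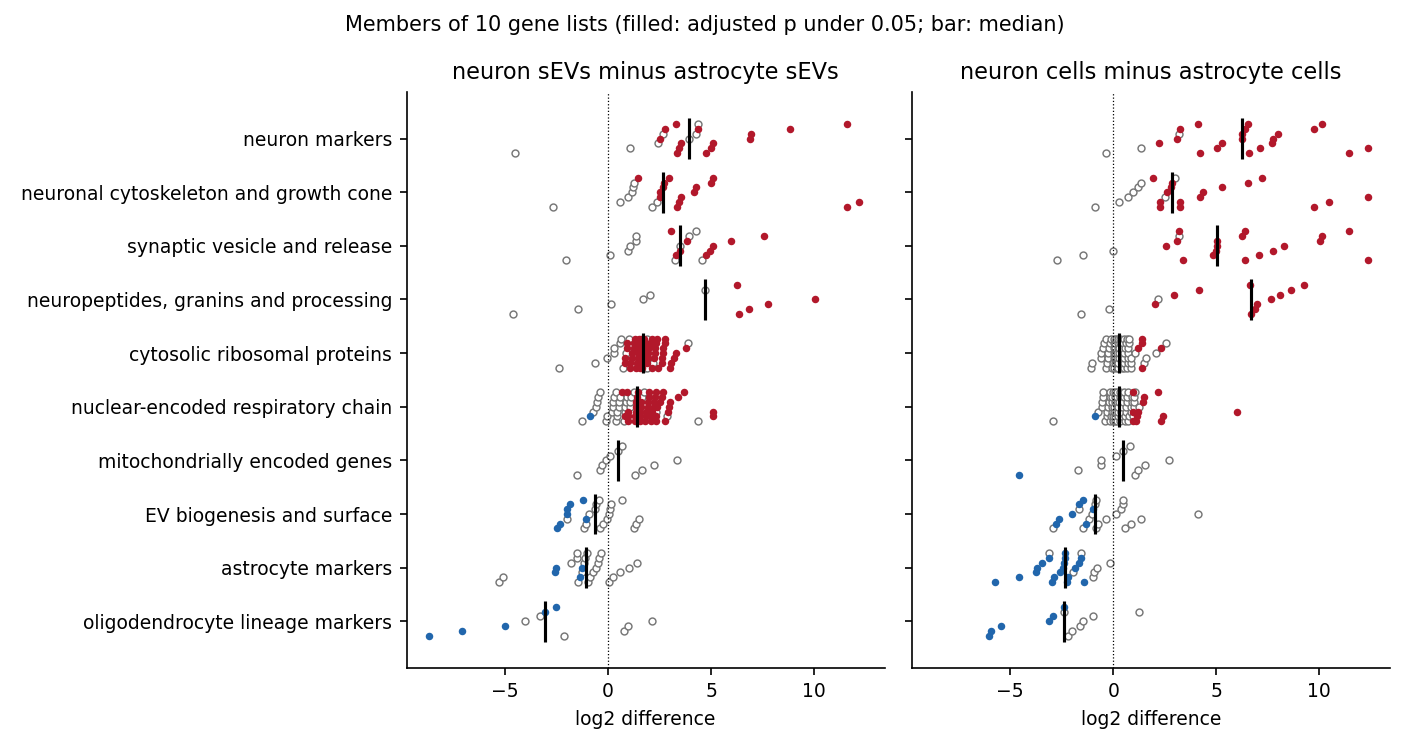
Each point is a tested gene of 1 of 10 lists with reads in the groups compared, at its log2 difference of neuron sEVs minus astrocyte sEVs (left) and of neuron cells minus astrocyte cells (right). Filled points had an adjusted p under 0.05, red where higher and blue where lower, and the bar is the median of the points drawn. Ribosomal protein genes lie mostly right of 0 in the left panel, where 60 were called, and closer to 0 in the right panel, where 5 were.

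The same contrast in the source cells asks how far the vesicles mirror the cells they came from. Neuron cells and astrocyte cells differed in 853 genes (10.4%), 558 higher (6.82%) and 295 lower (3.6%), and in 414 to 487 when any 1 of the 6 cell libraries was left out. The sEV and cell contrasts share no library. Of the 741 genes higher in neuron sEVs, 281 were also higher in neuron cells, 3 were lower and 457 were not called there. Of the 432 lower in neuron sEVs, 123 were also lower in neuron cells, 1 was higher and 308 were not called. Genes higher in neuron cells had a median log2 difference of 2.49 in sEVs, and genes lower there one of -1.27. Across genes the log2 differences in sEVs and cells had Pearson's r of 0.504 and Spearman's rho of 0.497, a description over 8184 genes that share libraries and are not independent replicates. A call in one fraction and not in the other is not a tested difference between them.

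Neuronal genes that led in cells were not all found in the vesicles. Caly, a vesicle adaptor, averaged 436 ± 33.98 CPM in neuron cells with 0 reads in astrocyte cells, and had 99.5, 94.9 and 87.1 CPM in neuron sEVs, against 0, 7.76 and 0 CPM in astrocyte sEVs (log2 difference 5.33 ± 0.85, adjusted p = 0.000991). Tmem130, with 387 ± 87.6 CPM in neuron cells, had 0 reads in all 6 sEV libraries, like Syt4. At the other end, Bmpr1a, a BMP receptor, Ttr, transthyretin, Agtrap and Renbp had 0 reads in neuron cells and 70.96 ± 2.35 CPM, 68.3 ± 25.7 CPM, 32.3 ± 21.6 CPM and 30.6 ± 8.92 CPM in astrocyte cells. Their sEV differences did not pass the test (adjusted p of 0.918, 0.253, 0.460 and 0.0735). Txnip, an inhibitor of thioredoxin, was lower in both. It had 6.63, 6.33 and 12.4 CPM in neuron sEVs, against 78.8, 81.5 and 63.1 CPM in astrocyte sEVs (log2 difference -3.10 ± 0.94, adjusted p = 0.0379). The Txnip call was lost without neuron sEV replicate 1, 2 or 3 or astrocyte sEV replicate 1, 2 or 3 (adjusted p up to 0.119).

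The test of the difference itself, the sEV contrast minus the cell contrast, called 39 genes (0.477%), 27 above 0 and 12 below. The count was 1 to 6 when any 1 of the 6 cell libraries was left out, 17, 20, 21 and 24 without astrocyte sEV replicate 1, astrocyte sEV replicate 2, neuron sEV replicate 1 and neuron sEV replicate 2. It was 7 without both libraries rich in Gm42047, and 29 without TMM, of which 9 lay above 0 and 20 below. Palm had 373, 323 and 220.4 CPM in neuron sEVs, against 0 reads in the 3 astrocyte sEV libraries. Cell levels were 108 ± 24.02 CPM in neuron cells and 10.9 ± 4.68 CPM in astrocyte cells (difference of differences 7.18 ± 1.04, adjusted p = 0.0228). Slc7a5 had 139, 129 and 71.1 CPM in neuron sEVs, against 0 reads in the 3 astrocyte sEV libraries. In cells it averaged 108 ± 8.17 CPM in neuron cells and 32.4 ± 7.16 CPM in astrocyte cells (difference of differences 7.30 ± 1.03, adjusted p = 0.0228). It encodes an amino acid transporter. Pcsk1n had 575, 857 and 529.7 CPM in neuron sEVs, against 0, 13.6 and 11.5 CPM in astrocyte sEVs. In the cells its level was 692 ± 143 CPM in neuron cells and 170 ± 47.2 CPM in astrocyte cells (difference of differences 4.32 ± 0.77, adjusted p = 0.0356). These 3 were higher in neuron cells too, by less. D8Ertd738e had 441, 418 and 523 CPM in neuron sEVs, against 226, 149 and 222 CPM in astrocyte sEVs. Cell levels were 5.69 ± 4.97 CPM in neuron cells and 81.4 ± 13.3 CPM in astrocyte cells (difference of differences 4.98 ± 0.64, adjusted p = 0.00367). It was higher in neuron sEVs and lower in neuron cells. Its sEV call was lost without any 1 of the 6 sEV libraries (adjusted p up to 0.140). Brd3 had 252, 289 and 76.4 CPM in neuron sEVs, against 29.7, 142 and 31.5 CPM in astrocyte sEVs. In cells it averaged 13.1 ± 4.42 CPM in neuron cells and 109 ± 18.9 CPM in astrocyte cells (difference of differences 4.66 ± 1.005, adjusted p = 0.0494). It encodes a reader of acetylated histones, and its sEV difference did not pass the test.

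Below 0, Synpr, the synaptic vesicle protein synaptoporin, had 0 reads in the 3 neuron sEV libraries, against 19.4, 0 and 7.17 CPM in astrocyte sEVs. In the cells its level was 343 ± 152 CPM in neuron cells and 18.4 ± 6.36 CPM in astrocyte cells (difference of differences -9.68 ± 1.66, adjusted p = 0.0384). Its sEV call (adjusted p = 0.0443) was lost without neuron sEV replicate 1, 2 or 3 or astrocyte sEV replicate 1 or 3 (adjusted p up to 0.140). Rnd1, a small GTPase whose sEV difference did not pass the test (adjusted p = 0.0566), had 0 reads in the 3 neuron sEV libraries, against 9.04, 5.82 and 0 CPM in astrocyte sEVs, and 32.96 ± 12.6 CPM in neuron cells and 1.87 ± 1.62 CPM in astrocyte cells (difference of differences -8.58 ± 1.76, adjusted p = 0.0475). Both were higher in neuron cells and had 0 reads in neuron sEVs. Kpna1, an importin of nuclear import, Mettl14, of the mRNA methylation complex, and Xrn2, a nuclear exonuclease, had 0 reads in neuron sEVs and cell levels that did not differ by the test. In neuron sEVs they were at least 5.37-fold lower (adjusted p = 0.000912), at least 5.39-fold lower (adjusted p = 0.000249) and at least 2.75-fold lower (adjusted p = 0.00182). The differences of differences were -6.98 ± 1.40 (adjusted p = 0.0475), -5.95 ± 1.18 (adjusted p = 0.0475) and -6.16 ± 1.28 (adjusted p = 0.0494). Among the 39 were 7 ribosomal protein genes and 2 of the respiratory chain. Genes called in opposite directions in sEVs and cells, named after their values were seen, were D8Ertd738e, Npc2, a cholesterol-binding protein of lysosomes, and Txn2, mitochondrial thioredoxin, all higher in neuron sEVs, and Synpr, lower. The sEV calls of D8Ertd738e, Npc2 and Txn2 were lost without TMM, and that of Synpr from full-splice matches. The Npc2 call was lost without neuron sEV replicate 1 or 2 or astrocyte sEV replicate 2 or 3 (adjusted p up to 0.209). That of Txn2 was lost without neuron sEV replicate 2 or 3 or astrocyte sEV replicate 1 (adjusted p up to 0.0823).

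**Figure D5:**
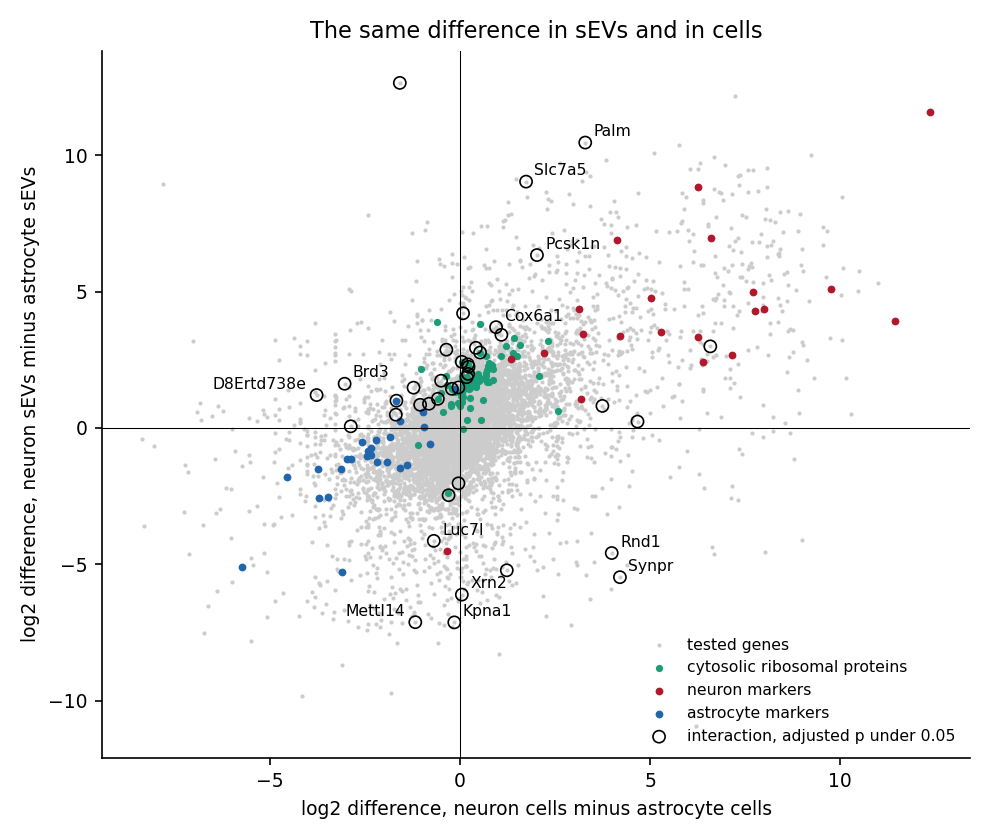
Each point is a tested gene with reads in both contrasts, at its log2 difference of neuron cells minus astrocyte cells (x) and of neuron sEVs minus astrocyte sEVs (y). Neuron markers (red) lie mostly at the upper right and astrocyte markers (blue) mostly at the lower left. Most ribosomal protein genes (green) lie above 0 on the y axis and nearer 0 on the x axis, and rings mark genes among the 39 called for the difference of differences.

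Counting per isoform, 759 of 9370 isoforms tested differed (8.1%), 396 higher in neuron sEVs (4.23%) and 363 lower (3.87%), and 292 higher and 572 lower without TMM. DESeq2 called 34. Of the 759, the gene was called too for 599. The smallest adjusted p belonged to a full-splice match of Selenow, with 11182, 10211 and 13097 CPM in neuron sEVs, against 1386, 924 and 1504 CPM in astrocyte sEVs (log2 difference 3.18 ± 0.25, adjusted p = 1.93e-05). The leading isoform of Tmsb10, an actin-binding thymosin, had 3604, 2675 and 5031 CPM in neuron sEVs, against 299, 224 and 355 CPM in astrocyte sEVs (log2 difference 3.69 ± 0.34, adjusted p = 3.9e-05). That of Mif had 599.8, 342 and 674 CPM in neuron sEVs, against 54.3, 46.7 and 78.8 CPM in astrocyte sEVs (log2 difference 3.16 ± 0.31, adjusted p = 6.44e-05). An isoform of Grina, a membrane protein of the endoplasmic reticulum and Golgi, had 31, 30 and 24 reads in neuron sEVs, against 0 in astrocyte sEVs (adjusted p = 5.93e-05). Those of Fabp3, Cox6a1, Mgst3 and Ndufb9 completed the 8 smallest, with log2 differences of 7.38, 3.68, 4.38 and 3.41. All 8 were full-splice matches and higher in neuron sEVs.

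In 7 genes, listed after their values were seen, isoforms were called in both directions: Capzb, Cdc42, Eif3i, Rtn1, Tpd52, Tpm3 and Tspan4. Cdc42, a small GTPase, gave 2 full-splice matches. One had 105, 64 and 73 reads in neuron sEVs, against 2, 6 and 10 reads in astrocyte sEVs, and the other had 96, 75 and 85 reads in neuron sEVs, against 538, 279 and 392 reads in astrocyte sEVs. A test of isoform usage, the share of a gene's reads that an isoform takes, called 19 of 1752 genes (1.08%), and 8 to 19 when any 1 sEV library was left out. It called 9, 8 and 11 without astrocyte sEV replicate 1, astrocyte sEV replicate 3 and neuron sEV replicate 2. Tpd52, a protein of vesicle traffic, had the smallest p (adjusted p = 0.000153): an isoform joining known junctions in a combination that is not annotated had 52, 33 and 38 reads in neuron sEVs, against 0 reads in astrocyte sEVs. It took 45.6% of the gene's reads on average in neuron sEVs and 0% in astrocyte sEVs. Tpm3, a tropomyosin, used such an isoform as well (adjusted p = 0.0164), with 44, 13 and 35 reads in neuron sEVs, against 0 reads in astrocyte sEVs. Rps4x of the small ribosomal subunit had an isoform that kept part of an intron (adjusted p = 0.00353), with 440, 84 and 300 reads in neuron sEVs, against 0 reads in astrocyte sEVs. Cltb, a clathrin light chain, had 55, 37 and 40 reads in neuron sEVs, against 0 reads in astrocyte sEVs for a full-splice match with another 3′ end (adjusted p = 0.00506). Ubb, a ubiquitin gene, had 84, 78 and 48 reads in neuron sEVs, against 0 reads in astrocyte sEVs for one that took 2.18% of the gene's reads on average in neuron sEVs and 0% in astrocyte sEVs (adjusted p = 0.00506). Each of these isoforms had 0 reads in astrocyte sEVs.

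In other genes the isoform was missing, or nearly so, from neuron sEVs. Abhd4, a lipase of lipid signalling, had a full-splice match with another 3′ end (adjusted p = 0.00446), with 0 reads in neuron sEVs, against 87, 77 and 89 reads in astrocyte sEVs. Its reference match had 98, 41 and 85 reads in neuron sEVs, against 43, 69 and 108 reads in astrocyte sEVs. Tspan4, a tetraspanin, had 0 reads in neuron sEVs, against 4, 11 and 7 reads in astrocyte sEVs for a reference match. It had 21, 5 and 10 reads in neuron sEVs, against 0, 0 and 2 reads in astrocyte sEVs for one with another 3′ end (adjusted p = 0.00506), few reads in all. Rtn1, a reticulon of the endoplasmic reticulum enriched in neurons, had 2, 0 and 0 reads in neuron sEVs, against 0, 89 and 40 reads in astrocyte sEVs for 1 full-splice match. It had 158, 124 and 119 reads in neuron sEVs, against 29, 25 and 17 reads in astrocyte sEVs for another (adjusted p = 0.00879). The astrocyte sEV reads of the first came from 2 libraries.

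Reads were also compared by how their structure matches annotated transcripts. Incomplete-splice matches, reads that match part of an annotated transcript, made up 10.8, 10.7 and 11.3% of reads in neuron sEVs, against 8.44, 8.80 and 6.65% in astrocyte sEVs. Most were 3′ fragments, which made up 9.83, 9.63 and 10.4% of reads in neuron sEVs, against 7.48, 7.97 and 5.96% in astrocyte sEVs. Intron retention made up 2.64, 2.59 and 2.44% of reads in neuron sEVs, against 2.01, 1.94 and 1.40% in astrocyte sEVs. In these 3 classes the neuron sEV libraries all lay above the astrocyte sEV libraries. Full-splice matches made up 73.7, 78.9 and 79.7% of reads in neuron sEVs, against 78.3, 82 and 84.9% in astrocyte sEVs, and the groups overlapped. With 3 libraries a side the smallest p the exact two-sided permutation test can give is 0.1, which the first 3 classes, isoforms that recombine known splice sites, and fusions reached, and after Benjamini-Hochberg adjustment over 11 classes it was 0.22. For full-splice matches the exact p was 0.3. In neuron cells and astrocyte cells incomplete-splice matches averaged 5.44 and 3.80%.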

How the data were processed

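Long-read cDNA of 18 libraries (PacBio Sequel II, 10 cycles of reamplification, 2 SMRT cells for each of 2 pools, per the labels' protocols) was aligned with minimap2 to GRCm39, per the submitters' processing notes. Neither tool versions nor the isoform caller or annotation is given in the sources used here. The deposited table, made by the authors, holds raw read counts of 114425 isoforms with a structural category, and sums of these gave counts for 17714 gene labels. Strand handling is not stated, so overlapping genes cannot be told apart. Totals per library ran from 434298 to 683381 reads.

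Genes passing filterByExpr over the 6 groups were fitted together over all 18 libraries, with TMM factors of 0.903 to 0.908 in neuron sEVs and 1.06 to 1.26 in astrocyte sEVs, by the quasi-likelihood test of edgeR 4.0.16 (R 4.3.3, limma 3.58.1), called at an adjusted p under 0.05. A gene could thus pass the filter through groups outside the comparison. DESeq2 1.42.0 was an alternative. Isoforms were fitted alike, usage by diffSpliceDGE with Simes p, and category shares by exact permutation. The fit was tested on simulated data. Over all genes same-numbered libraries did not deviate together (r of 0.009 to 0.041 in sEVs and -0.023 to 0.080 in cells, where 0.1 was asked), so no block was used. Single abundant transcripts did: in both sEV groups Gm42047 was highest in replicate 1, and Ftl1 in replicate 2 (23.2 and 31.5% of reads). A pairing by replicate number is thus not excluded, and counts with a block are given below.

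Genes were named by rule. Past the threshold, without overlap and with a mean of 20 or more reads in the higher group, these were the 12 largest differences, 8 smallest p and 5 most abundant per direction, with the 5 largest in each direction for the other contrasts and the 8 smallest p for isoforms and for usage. The 5 smallest p of each of 36 gene lists and any cell type marker could be named too. Predicted genes and read-throughs were passed over in ranks. Some genes that the rule takes are not reported here. The lists and comparisons were chosen with earlier results of these data known, and some members matched only by name (kinases, assembly factors) were dropped after results were seen. Alternatives, leaving out Ftl1, Gm42047 and Gm20186 or the libraries rich in Gm42047, were added after seeing the data, and so were the motifs, of which a few longer ones looked at first are not reported. Promoter sequences are from RefSeq on GRCm38.p6, another build than that of the reads, and no other coordinates are given.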

Additional observations from a re-analysis of the deposited data

Results flagged for a closer look

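In 10 genes named by the rule the difference between neuron and astrocyte sources was called different in sEVs and in cells, by the test of the difference of differences (log2, sEV contrast minus cell contrast, adjusted p from edgeR under 0.05). Above 0 these were Slc7a5 (7.30), Palm (7.18), D8Ertd738e (4.98), Brd3 (4.66) and Pcsk1n (4.32). Below 0 they were Synpr (-9.68), Rnd1 (-8.58), Kpna1 (-6.98), Xrn2 (-6.16) and Mettl14 (-5.95). The values of Slc7a5, Palm, Synpr, Rnd1, Kpna1, Xrn2 and Mettl14 come from groups with 0 reads in 3 libraries, so they depend on the prior count and are no measure of size. Calls of this test were unstable: 0 genes passed with the replicate number as a block, and 1 to 6 without any 1 of the 6 cell libraries. Without both libraries rich in Gm42047 7 passed, of which 3 were among the 39 of the main fit. The test also spans the 2 sequencing pools, so fraction and pool cannot be told apart.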

How the results depend on the processing

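Of 144 genes named in the text with a called sEV difference, 108 were called without each of the 6 libraries in turn, 134 without TMM, 141 by DESeq2, 129 without a filter, 100 with the 9 sEV libraries alone, 110 with the 6 compared alone, 116 from full-splice matches, where 10 were not tested, 143 without Ftl1, Gm42047 and Gm20186, and 112 without both libraries rich in Gm42047. The calls lost without TMM were those of Ccnd1, D8Ertd738e, Eef1a1, Eef1g, Gstm5, H2-D1, Npc2, Rpl4, Tpi1 and Txn2. From full-splice matches alone the calls of Bcas1, Camk2b, Ccl5, Ccnd1, Efcab14, Eno2, H2-D1, Hnrnpa2b1, Ifitm2, Mapt, Palm, Rps23-ps1, Slc2a1, Slc7a5, Snrpd2, Synpr and Tmem88b were lost, and Timp2 reversed (log2 2.72, not called). The number of genes that differed between neuron sEVs and astrocyte sEVs was 550 with the 9 sEV libraries alone, 707 without both libraries rich in Gm42047 and 836 to 1118 without each library in turn. Between neuron cells and astrocyte cells it was 414 to 487 without each library. The difference of differences gave 300 calls by DESeq2, 185 without a filter, 7 without both libraries rich in Gm42047 and 1 to 41 without each library. Isoform calls numbered 34 by DESeq2, of which 2 were among the 759 of the main fit, so most isoform calls depended on the method. They numbered 330 with the 9 sEV libraries and 437 to 568 without each library, and usage calls 8 to 19. The replicate number as a block was not borne out by the check of pairing over all genes. With it, calls were 800 for sEV genes, 496 for cells, 347 for isoforms and 4 for usage. The difference of differences then gave 0 calls (edgeR, 808 at an unadjusted p under 0.05). The share of reads in recombined known splice sites differed by 0.968 percentage points among isoforms with reads in 2 or more libraries and 0.328 without predicted genes, and that with unannotated splice sites by -1.73 and -0.323, with -1.72 to 1.95 without each library. The causes were not tested. The 3 libraries a side and common dispersions of 0.31 for genes and 0.681 for isoforms limit the precision of low counts.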

Other observations

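Labels that join a pair of genes were not used in the ranks above. Antkmt_Metrn had 670, 643 and 964 reads in neuron sEVs, against 0 reads in astrocyte sEVs, whereas Metrn_Antkmt had 0 reads in neuron sEVs, against 4, 447 and 270 reads in astrocyte sEVs. Whether both orders label the same locus could not be settled, and over both the reads were 670, 643 and 964 in neuron sEVs, against 4, 447 and 270 in astrocyte sEVs. Metrn itself, which encodes the secreted factor meteorin, had 923, 1221 and 1509 reads in neuron sEVs, against 463, 541 and 553 in astrocyte sEVs. Of 661 such labels, 108 pairs of genes occurred in both orders.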
